A study of Mus musculus with 6 samples.

Results

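The genes described here are 37 mouse genes of DNA damage repair, picked by symbol from the 57186 genes of a bulk RNA-seq count table. They cover damage signalling, homologous recombination, the Fanconi anaemia pathway, and mismatch, base excision and nucleotide excision repair. The 6 libraries come from tumours of MB49, a bladder carcinoma cell line from a male C57BL/6 mouse. The line carried either a CRISPR edit against the Y chromosome (Y-KO) or a scrambled CRISPR control (Y-Scr). Cells of both kinds were grown as subcutaneous tumours in C57Bl/6J mice and harvested at 500 mm3. RNA came from the sorted CD45-negative fraction, with 3 libraries per group in 1 batch. The labels give neither the age or sex of the mice, nor the number of edited clones, nor whether each library is a separate animal, and p-values therefore speak to the spread among these 6 libraries alone, part of which may be technical. Every difference is Y-KO minus Y-Scr.

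DNA repair pathways are divided by the lesion they act on. Double-strand breaks are sensed by the MRN complex and the kinases ATM and ATR, and are repaired accurately by homologous recombination, in which BRCA1, PALB2 and BRCA2 act on the resected ends. The Fanconi proteins open crosslinked strands, mismatch repair corrects replication errors, and excision repair removes damaged bases or bulky adducts. Many genes of homologous recombination are transcribed mainly in dividing cells, in which a sister chromatid is there to copy from.

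The Y-linked genes checked the labels. Mean CPM (counts per 1e6 counts of the library, after TMM scaling; ± SD, n = 3) was 3.33 ± 1.38 in Y-KO against 44.0 ± 4.04 in Y-Scr for Kdm5d, and 16.1 ± 6.98 against 146 ± 16.9 for Ddx3y. Library totals were 42040955 to 52951031 counts. Libraries of a group were not equally alike. A chi-square per gene, over genes with a mean of at least 1000 counts in the pair, averaged 13.3 between Y-KO replicates 1 and 2 and 189 between either and replicate 3. It averaged 7.72 between Y-Scr replicates 2 and 3, and 30.7 and 41.5 between these and replicate 1. Results are therefore also given without Y-KO replicate 3 and with each close pair summed. Transcripts of leukocytes were present despite the sort for CD45-negative cells. Of 9 tested urothelial and epithelial markers 4 rose and 2 fell, with a summed level of 3284 to 3477 CPM against 2426 to 2753, while the defining urothelial genes Upk2 and Upk3a had 0 counts in every library. Of 12 pan-leukocyte markers, 5 fell, and their summed level was 1276 to 2742 CPM across the Y-KO libraries, below the 3461 to 3578 of Y-Scr. Of 14 T and NK cell markers 12 fell (162 to 274 against 818 to 894 CPM), of 6 B cell markers 5 (26.9 to 32.4 against 93.9 to 103), of 6 neutrophil markers 5 (408 to 736 against 1524 to 1713) and of 10 fibroblast markers 3 (174 to 621 against 938 to 997), while 5 of 10 macrophage markers rose (1264 to 2221 against 1223 to 1375). Of the endothelial markers tested, 6 in number, none passed (edgeR; 1 higher and 1 lower at an unadjusted p under 0.05, and 1 higher by DESeq2). Within Y-KO, replicate 3 differed from replicates 1 and 2 in summed fibroblast markers (621 against 174 and 179 CPM) and macrophage markers (1264 against 2221 and 2209). Its macrophage sum lay within the Y-Scr range. In pan-leukocyte markers it stood at 1276 against 2686 and 2742 CPM. In a bulk sample fewer cells of a type and less RNA per cell cannot be told apart, and the part of this cell mixture in the values below was not tested.

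All 37 repair genes passed the filter on low counts. Msh6, Brca2 and Mre11a rose by 1.34-fold to 1.56-fold, 34 genes did not pass the test and none fell. The share of repair genes that rose, 8.11%, is close to the 7.82% of all 17837 genes tested that were called higher, and 8.27% of all genes were called lower (edgeR quasi-likelihood test, adjusted p under 0.05). At an unadjusted p under 0.05, edgeR placed 10 repair genes higher and 0 lower, against 15.1% and 15.6% of all genes. DESeq2 called 5 repair genes higher and 0 lower, against 10.3% and 11.2% of all genes, and limma-voom 3 and 0, against 8.55% and 9.83%. The median log2 fold change of the 37 genes was 0.12, against -0.03 for all genes tested. With TMM 24 of them (64.9%) lay above 0, against 47.5% of all genes. With library size only 16 of them did, and the share of all genes above 0 was not computed for that scaling. Scaled by library size only, the median of all genes moved to -0.17 and that of the repair genes to -0.03, so that it lay above all genes under both scalings. The calls over all genes then moved from 1395 higher and 1476 lower to 730 (4.09%) and 2255 (12.6%).

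**Figure D1:**
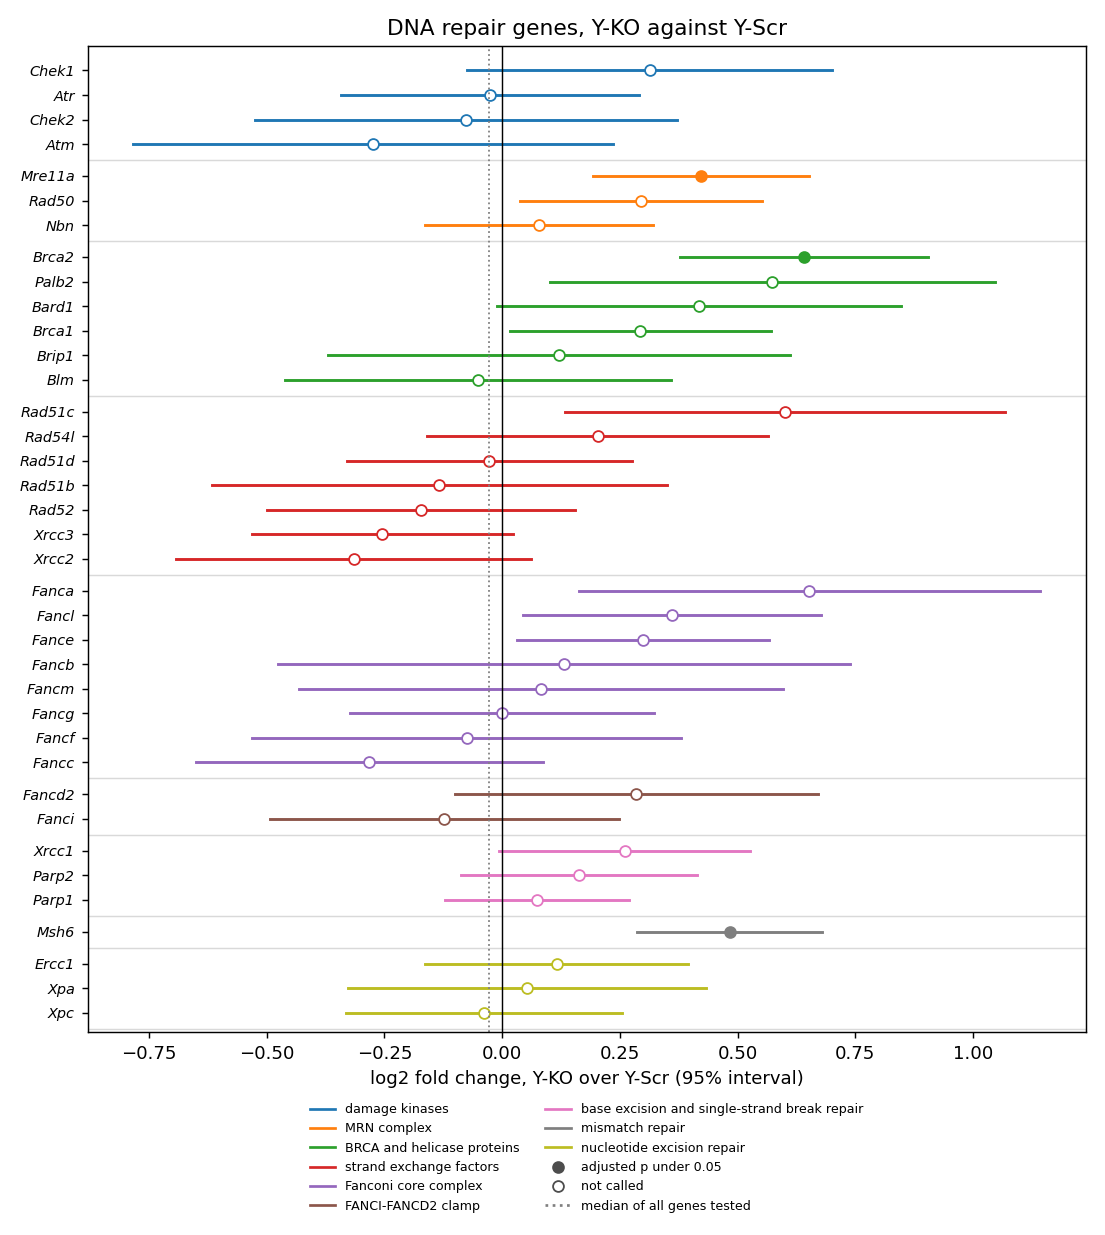
Log2 fold change of each repair gene with its 95% interval (edgeR, n = 3 per group), grouped and coloured by role. Filled points passed an adjusted p of 0.05 (Msh6, Brca2 and Mre11a), open points did not, and the dotted line at -0.03 is the median of all genes tested.

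Msh6 encodes a mismatch repair protein that recognises base mismatches and small loops. Its level was 97.2, 96.2 and 92.0 CPM in Y-KO replicates 1 to 3 and 64.1, 67.3 and 72.8 CPM in Y-Scr replicates 1 to 3. The lowest Y-KO library stood above the highest Y-Scr library. It rose 1.40-fold (log2 fold change 0.48 with an SE of 0.09, adjusted p = 0.00755 by edgeR). Per length it was the second most abundant repair gene in Y-Scr, at 15.7 ± 1.01 CPM per kilobase of exon (SD, n = 3), and stood at 21.9 in Y-KO.

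Brca2 encodes a mediator of homologous recombination that acts at resected DNA ends. Its level was 26.9, 28.0 and 24.2 CPM in Y-KO and 16.3, 17.8 and 16.6 CPM in Y-Scr, again with no overlap of the groups. It rose 1.56-fold (log2 fold change 0.64 with an SE of 0.12, adjusted p = 0.00785 by edgeR). Mre11a encodes the nuclease of the MRN complex, which starts the resection of broken ends. It stood at 60.0, 54.3 and 50.1 CPM in Y-KO and at 39.4, 40.3 and 43.0 CPM in Y-Scr, without overlap, and rose 1.34-fold (log2 fold change 0.42 with an SE of 0.10, adjusted p = 0.0243 by edgeR).

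When each library was left out in turn, Msh6 and Brca2 passed every time, with edgeR adjusted p from 0.000141 to 0.0491 and from 0.00019 to 0.0468. Mre11a passed without Y-KO replicate 3 and missed in each of the other 5 fits (adjusted p from 0.0667 to 0.105, log2 fold change 0.35 to 0.47), and also when scaled by library size only (0.096). These 5 fits called 2 repair genes higher each. Of all genes, 3.86% and 3.90% were called higher when Y-KO replicate 1 or 2 was left out, and 5.20%, 2.45% and 2.56% when it was Y-Scr replicate 1, 2 or 3. No repair gene was lower in any, against 5.35%, 5.62%, 4.06%, 3.10% and 3.01% of all genes in the same order. With the close pairs summed none of the 37 passed (edgeR, 3 at an unadjusted p under 0.05), at log2 fold changes of 0.50, 0.63 and 0.41 and adjusted p of 0.125, 0.124 and 0.214 for Msh6, Brca2 and Mre11a. In that fit 0.700% of all genes were called higher and 1.85% lower. Msh6 lies on chromosome 17 (88282490 to 88298320), Brca2 on chromosome 5 (150446095 to 150493794) and Mre11a on chromosome 9 (14695950 to 14748419, GRCm39). All tested genes of these chromosomes had a median log2 fold change of 0.00, -0.02 and -0.08. Reads were counted without strand, and exons of the opposite strand overlap 0.782%, 0.301% and 2.60% of the exon bases of the 3 genes.

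The promoters of the genes that rose are shown to see whether their sequences have motifs in common. RefSeq (GRCm38.p6) had a promoter entry for 31 of the 37 genes, and the 250 bases before each start were searched on both strands for 11 motifs, chosen after the values and sequences were seen. Each sequence runs 5′ to 3′ on the strand of its gene. Capitals mark the E2F form TTTCCCGC, the CCAAT box and the cyclic AMP response element TGACGTCA, or their reverse complements.
Msh6 (chr17:87974800-87975049, plus strand): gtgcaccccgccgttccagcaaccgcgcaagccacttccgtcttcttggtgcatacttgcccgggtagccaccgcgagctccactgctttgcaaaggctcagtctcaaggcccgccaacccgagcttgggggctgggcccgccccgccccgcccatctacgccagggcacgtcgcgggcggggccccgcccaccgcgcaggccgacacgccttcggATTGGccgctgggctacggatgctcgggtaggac
Brca2 (chr5:150522371-150522620, plus strand): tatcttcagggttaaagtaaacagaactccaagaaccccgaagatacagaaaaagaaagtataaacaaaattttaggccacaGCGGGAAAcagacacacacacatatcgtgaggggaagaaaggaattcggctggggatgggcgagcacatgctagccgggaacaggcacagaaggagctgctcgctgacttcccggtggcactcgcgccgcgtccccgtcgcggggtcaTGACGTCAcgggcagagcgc
Mre11a (chr9:14784404-14784653, plus strand): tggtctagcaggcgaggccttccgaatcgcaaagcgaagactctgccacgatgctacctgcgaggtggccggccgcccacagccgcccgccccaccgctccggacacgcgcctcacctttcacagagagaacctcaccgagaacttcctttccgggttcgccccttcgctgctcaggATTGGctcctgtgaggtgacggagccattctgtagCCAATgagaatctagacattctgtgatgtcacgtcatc

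No motif of the 11 was in all 3 windows. CCAAT was in Msh6, 34 to 30 bases before the start, and at 2 places in Mre11a, and was found in 18 of the 31 repair promoters (58.1%), against 39.9% of the 11493 tested genes with an entry and 33.8% of all 32851 entries. The E2F form TTTCCCGC was in Brca2, 168 to 161 bases before the start, and also in Bard1, Chek2 and Fancg. These are 12.9% of the repair promoters, against 1.88% of tested genes and 0.895% of all entries. Of these 4 genes, Brca2 rose and the other 3 did not pass. The related E2F forms TTTGGCGC and TTTCGCGC were in no repair promoter, and in 0.844% and 0.574% of tested genes, and TTCCCGCC, which can overlap TTTCCCGC by 7 bases, was in Fancb and Fancm, 6.45% against 3.87% of tested genes. TGACGTCA was in Brca2 and Rad51c, and in 2.80% of tested genes. The GC box GGGCGG was in 20 repair promoters, Msh6 and Mre11a included, and in 59.9% of tested genes. TTTGAA, the cell cycle genes homology region, was in Bard1 and in 13.7% of tested genes. The E-box CACGTG was in Parp1 and Parp2 (9.43% of tested genes), the ETS site ACTTCCG in Msh6, Fanci and Palb2 (10.5%), and the NRF1 palindrome in no repair promoter (1.66%). A match describes letters in the window and shows no binding.

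Among the other members of the MRN complex, Rad50, the coiled-coil ATPase, stood at 39.7, 48.8 and 39.2 CPM in Y-KO and 33.5, 35.9 and 34.8 CPM in Y-Scr, without overlap, but did not pass (log2 fold change 0.29 with an SE of 0.11, adjusted p = 0.116 by edgeR). Nbn, the adaptor that brings ATM to the complex, differed by 0.08 (95% interval -0.16 to 0.32). None of the 4 damage kinase genes passed (edgeR; 0 at an unadjusted p under 0.05, and 0 by DESeq2 and limma-voom). Chek1, the effector kinase below ATR, had the smallest p of them, with 20.2, 21.1 and 14.8 CPM in Y-KO and 13.3, 16.9 and 15.0 CPM in Y-Scr. Y-KO replicates 1 and 2 were above all Y-Scr libraries and replicate 3 was among them (log2 fold change 0.31 with an SE of 0.17, adjusted p = 0.256 by edgeR). The log2 difference was -0.03 for Atr (95% interval -0.34 to 0.29), -0.08 for Chek2 (-0.52 to 0.37) and -0.27 for Atm (-0.78 to 0.24). Atm varied most within Y-Scr of the 4, from 16.4 to 30.4 CPM.

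Of the BRCA group, Brca2 rose and the other 5 did not pass. Palb2, which bridges BRCA1 and BRCA2, was at 10.7, 10.3 and 7.49 CPM in Y-KO and 5.28, 6.69 and 7.18 CPM in Y-Scr (log2 fold change 0.57 with an SE of 0.21, adjusted p = 0.0977 by edgeR). Bard1, the obligate partner of BRCA1 in its ubiquitin ligase, was at 20.3, 24.3 and 14.5 CPM in Y-KO and 13.8, 15.1 and 15.3 CPM in Y-Scr. Brca1 itself was at 33.0, 28.5 and 26.2 CPM in Y-KO and 22.5, 23.7 and 25.3 CPM in Y-Scr, without overlap (log2 fold change 0.29 with an SE of 0.12, adjusted p = 0.141 by edgeR). In Palb2, Bard1 and Brca1 the lowest Y-KO value was that of replicate 3, which in Bard1 lay within the Y-Scr range. The helicase genes Brip1 (0.12, 95% interval -0.37 to 0.61) and Blm (-0.05, -0.46 to 0.36) overlapped between the groups.

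The strand exchange factors did not share a direction, and none of the 7 passed (edgeR, 1 at an unadjusted p under 0.05; DESeq2 called Rad51c and limma-voom 0). Rad51c, whose product takes part in strand exchange, was the least abundant repair gene per length. It stood at 5.74, 4.81 and 5.06 CPM in Y-KO and 3.27, 3.25 and 3.76 CPM in Y-Scr, without overlap (log2 fold change 0.60 with an SE of 0.20, adjusted p = 0.0819 by edgeR, DESeq2 adjusted p = 0.0475). Xrcc3, another strand exchange gene, lay the other way without overlap, at 15.6, 13.8 and 16.0 CPM in Y-KO and 18.1, 18.0 and 18.0 CPM in Y-Scr (log2 fold change -0.25 with an SE of 0.12, adjusted p = 0.197 by edgeR). The strand exchange genes Xrcc2, Rad51b and Rad51d had log2 fold changes of -0.32, -0.13 and -0.03, the annealing factor gene Rad52 had -0.17, and the motor protein gene Rad54l had 0.20.

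Of the Fanconi core complex, whose ubiquitin ligase marks the FANCI-FANCD2 clamp at crosslinks, none of 8 genes passed (edgeR, 3 at an unadjusted p under 0.05; DESeq2 called Fanca and limma-voom 0). Fanca, a core subunit, had the largest log2 fold change of all 37, 0.65 (SE 0.21, edgeR adjusted p = 0.074, DESeq2 adjusted p = 0.0245) and was at 23.5, 22.0 and 13.7 CPM in Y-KO and 10.7, 12.8 and 14.2 CPM in Y-Scr, so that replicate 3 of Y-KO lay below the highest Y-Scr library. Of its exon bases 10.5% overlap Zfp276 on the opposite strand. Fancl, the ligase subunit, and Fance, which binds FANCD2, did not overlap between the groups, at 13.9 to 16.2 against 10.8 to 12.8 CPM and at 26.0 to 31.8 against 21.9 to 24.2 CPM (adjusted p = 0.117 and 0.123 by edgeR). Fancc lay lower without overlap (log2 fold change -0.28, edgeR adjusted p = 0.282), and Fancb, Fancm, Fancg and Fancf were between 0.13 and -0.08. Exons of 2 opposite-strand genes overlap 34.9% and 13.7% of the exon bases of Fancl, and opposite-strand exons overlap 16.4% of those of Fancc by 1 gene, 15.0% of those of Fancf, 16.0% of those of Fanci and 15.4% of those of Rad54l. Of the clamp, Fancd2 was at 16.7, 14.1 and 15.3 CPM in Y-KO and 10.0, 14.5 and 13.4 CPM in Y-Scr (edgeR adjusted p = 0.299), and Fanci had a log2 fold change of -0.12 (edgeR adjusted p = 0.669).

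None of the 6 base and nucleotide excision repair genes among the 37 passed. Parp1, the sensor of strand breaks that makes poly(ADP-ribose) and the most abundant repair gene per length in Y-Scr, was at 94.2, 89.7 and 82.5 CPM in Y-KO and 82.6, 83.1 and 87.3 CPM in Y-Scr. The groups overlapped, and the 95% interval of its fold ran from 0.919 to 1.21. Xrcc1, the scaffold of single-strand break repair, was at 35.7, 43.1 and 42.7 CPM in Y-KO and 37.3, 31.8 and 32.3 CPM in Y-Scr (log2 fold change 0.26 with an SE of 0.12, adjusted p = 0.173 by edgeR), and Parp2 differed by 0.16 (SE 0.11). Ercc1, which forms a nuclease with XPF, was at 18.7, 21.8 and 18.7 CPM in Y-KO and 19.2, 17.3 and 18.1 CPM in Y-Scr (log2 fold change 0.12 with an SE of 0.12, adjusted p = 0.583 by edgeR). The damage recognition genes Xpa and Xpc differed by 0.05 and -0.04. None of these 6 had an unadjusted p under 0.05 in edgeR or was called by DESeq2 or limma-voom. Of all 34 repair genes that did not pass, 31 had a 95% interval within a 2-fold change either way and 20 within 1.5-fold.

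**Figure D2:**
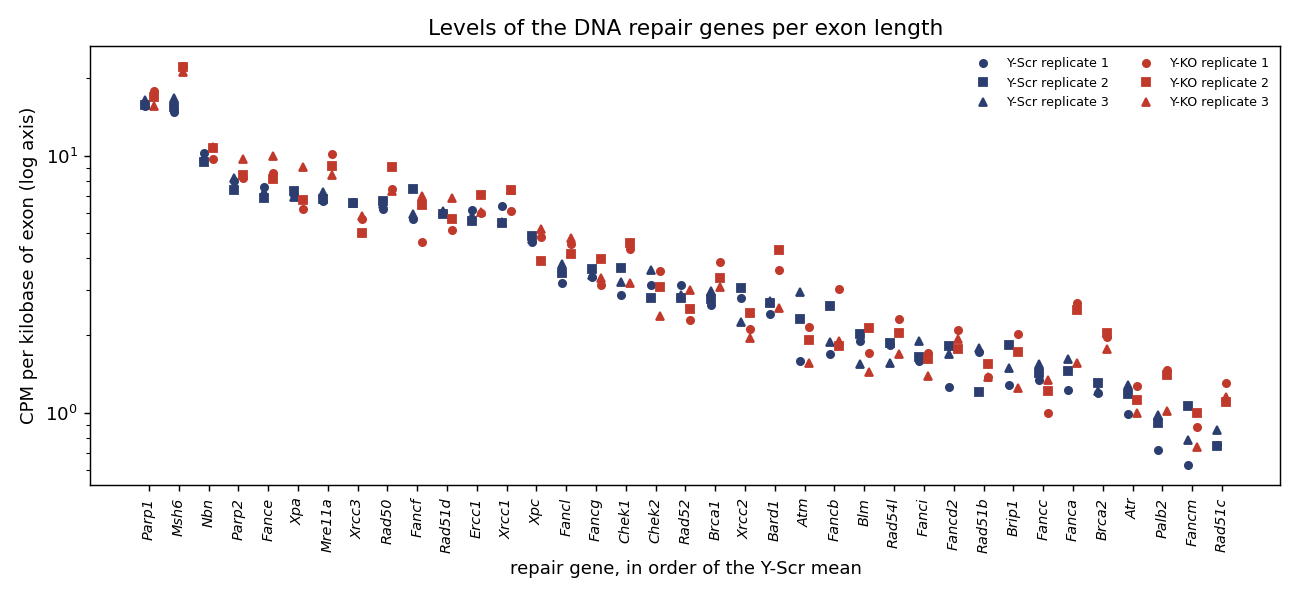
CPM per kilobase of exon (log axis) of each repair gene in each library, in the order of the Y-Scr mean, which falls from 15.9 for Parp1 to 0.782 for Rad51c. Marker shape gives the replicate and colour the group, and the red Msh6, Mre11a and Brca2 points lie above the blue ones.

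Per kilobase of exon, Parp1 (15.9 ± 0.483, SD, n = 3) and Msh6 (15.7 ± 1.01) led in Y-Scr with overlapping mean ± SD. Nbn (9.86 ± 0.416) and Parp2 (7.83 ± 0.426) came next, each below its predecessor by more than the spread. From Fance (7.23 ± 0.355) to Xrcc1 (5.80 ± 0.525) neighbours in the order overlapped by mean ± SD, except Mre11a (6.90 ± 0.312) and Xrcc3 (6.56 ± 0.0220). Xpc (4.76 ± 0.129) stood alone, and from Fancl (3.50) downwards neighbours overlapped except Atr (1.15 ± 0.145) and Palb2 (0.869 ± 0.134). The kinase, BRCA and most Fanconi genes were lower, such as Chek1 at 3.25 ± 0.386, Brca1 at 2.79 ± 0.170 and Brca2 at 1.24 ± 0.0584, and Fancm (0.822) and Rad51c (0.782) ended the order. Exon length counts all annotated isoforms, so long genes such as Atr, at 23629 bases, may be placed too low.

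With Y-KO replicate 3 left out, 9 of 37 repair genes were higher (24.3%, against 16.0% of all genes) and none lower, where Msh6, Brca2 and Mre11a were joined by Fanca (log2 fold change 0.86), Palb2 (0.72), Bard1 (0.60), Chek1 (0.45), Brca1 (0.36) and Rad50 (0.35), with edgeR adjusted p from 0.000183 to 0.0203. Only the closely alike replicates 1 and 2 are then left in Y-KO. The share of all genes called lower was 17.7%. The summed level of all 37 genes was 869 and 871 CPM in Y-KO replicates 1 and 2, 816 in replicate 3, and 724, 761 and 773 in Y-Scr. Scaled by library size only, the sums were 825, 824 and 781 in Y-KO and 748, 806 and 817 in Y-Scr. The groups were thus apart with TMM scaling and overlapped without it. Over all 6 libraries, 10 repair genes lay higher without overlap (27.0%, against 17.5% of all genes) and 2 lower (5.41%, against 20.3%).

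**Figure D3:**
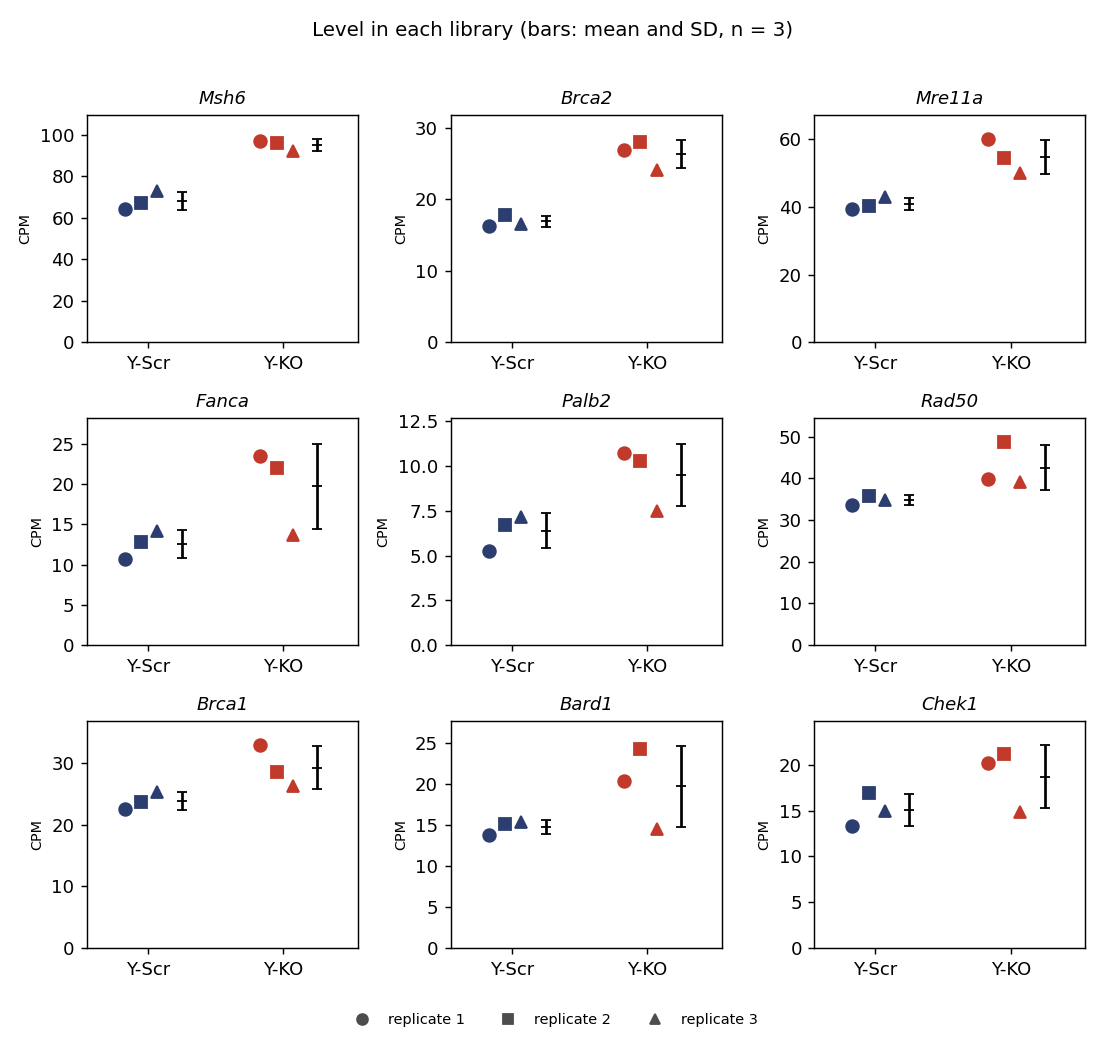
CPM of 9 repair genes in each library, with mean and SD (n = 3) at the right of each group. These are the genes higher in Y-KO with all libraries (Msh6, Brca2, Mre11a) or without Y-KO replicate 3. The triangle of Y-KO replicate 3 is the lowest Y-KO point in all 9 panels, though narrowly so in Rad50 (39.2 against 39.7 CPM). Selection by the fit without that replicate favours genes in which it is low. In other repair genes, such as Rad51d, it was the highest Y-KO library (25.5 against 19.1 and 21.0 CPM).

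Of 24 proliferation markers 8 rose (33.3%), none fell (edgeR; 0 lower at an unadjusted p under 0.05, and 0 by DESeq2 and limma-voom) and all 24 had a positive fold change, or 22 of 24 with 3 called when scaled by library size only. Of all genes, 7.82% were called higher with TMM scaling and 4.09% with library size only. The replication licensing genes Cdt1, Mcm7 and Mcm3 rose 1.65-fold, 1.43-fold and 1.49-fold. The summed level of the markers was 3223 and 3270 CPM in Y-KO replicates 1 and 2, 2627 in replicate 3 and 2388 to 2430 in the Y-Scr libraries. Scaled by library size only it was 3059, 3094 and 2516 in Y-KO and 2484, 2531 and 2568 in Y-Scr, where Y-KO replicate 3 lay among the Y-Scr libraries. When Y-KO replicate 3 was left out, 19 of the markers were higher (79.2%), against 16.0% of all genes. The part of proliferation in the repair gene values was not tested. With the close pairs summed none of the 24 passed (edgeR, 6 higher at an unadjusted p under 0.05). Cdt1 and Mcm7 passed whichever library was left out, and Mcm3 missed without any library but Y-KO replicate 3 (edgeR adjusted p from 0.0584 to 0.0908).

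Of 130 other repair genes, in 8 lists, 9 rose (6.92%), 3 fell (2.31%) and 118 did not pass, against 7.82% of all genes called higher and 8.27% lower. Sfr1, a recombination factor, Exo1, a resection nuclease, and Rpa2, a subunit of the protein that coats single-stranded DNA, rose 1.55-fold, 1.48-fold and 1.33-fold, 3 of the 33 other recombination genes. In nucleotide excision repair 4 of 17 rose: Ddb1, a subunit of the ubiquitin ligase that marks ultraviolet damage, with 804 ± 22.2 CPM in Y-KO and 623 ± 4.24 in Y-Scr (adjusted p = 0.0061 by edgeR), Rad23b, a partner of XPC, 1.31-fold, and the TFIIH subunit genes Gtf2h4 and Gtf2h5 1.53-fold and 1.28-fold. The last was named after its values were seen.

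Of 22 base excision genes 1 rose and 2 fell. Tdg, a glycosylase that removes mismatched thymine, rose 1.42-fold, and Smug1, a uracil glycosylase, fell 1.61-fold. The glycosylase gene Neil2 had 0 counts in every Y-KO library and 68 in all of Y-Scr. With 3 counts per group as the floor it was at least 20.3-fold lower, a limit that covers counting error only. It passed the filter on low counts through its Y-Scr libraries alone, so its call is no separate support for a difference. With a mean CPM of at least 1 or with halved counts Neil2 was not tested, and 2 of the 130 genes were lower. In end joining 1 of 16 fell, Trp53bp1, which encodes the 53BP1 protein that shields broken ends from resection. It was at 28.4, 28.8 and 34.4 CPM in Y-KO and 41.3, 48.7 and 44.4 CPM in Y-Scr, without overlap, which is 1.47-fold less (log2 fold change -0.55 with an SE of 0.12, adjusted p = 0.0153 by edgeR). Of 14 other checkpoint genes 1 rose, the Cdk1-inhibiting kinase gene Wee1, at 76.9, 77.4 and 197 CPM in Y-KO against 27.9, 32.1 and 35.9 CPM in Y-Scr. Its Y-KO replicate 3 was far above the others, and its log2 fold change was 1.87 with that library and 1.27 without it.

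None of 9 other Fanconi, 6 other mismatch repair and 13 translesion and direct reversal genes passed in edgeR, DESeq2 or limma-voom. At an unadjusted p under 0.05 in edgeR, 1, 0 and 2 of these were lower and none was higher. The translesion and direct reversal list had the one negative median of the 8, -0.19. Without any one of the libraries the counts over the 130 genes ran from 2 to 21 higher and from 0 to 10 lower. The highest of both came without Y-KO replicate 3, where 16.2% of the 130 were higher, against 16.0% of all genes. In that fit 17.7% of all genes were lower. Without Y-Scr replicate 2, with 2 higher and 0 lower, the shares of all genes were 2.45% and 3.10%. Sfr1 and Ddb1 passed whichever library was left out. Rad23b and Gtf2h4 missed without Y-Scr replicate 2 or 3, Wee1 without Y-Scr replicate 1 or 2 and Neil2 without any 1 of the Y-Scr libraries (edgeR adjusted p from 0.0511 to 0.110). Exo1, Rpa2, Trp53bp1 and Gtf2h5 missed without Y-KO replicate 1 or 2 or Y-Scr replicate 2 or 3, and Tdg and Smug1 without any library but Y-KO replicate 3 (edgeR adjusted p from 0.0571 to 0.175). With the close pairs summed none passed (edgeR, 9 higher at an unadjusted p under 0.05).

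Of 16 targets of p53, the factor that damage signalling activates, 4 rose (25%) and 1 fell (6.25%), against 7.82% and 8.27% of all genes. Their log2 fold changes ran from -1.12 to 1.37, with 10 above 0 and 6 below. Without Y-KO replicate 3, 10 were higher (62.5%) and 4 lower, against 16.0% and 17.7% of all genes. The stress cytokine gene Gdf15 rose 2.58-fold, with 45.4, 45.8 and 29.1 CPM in Y-KO and 15.6, 15.6 and 15.4 CPM in Y-Scr (adjusted p = 0.00173 by edgeR), and the cell death genes Bbc3 and Bax rose 1.40-fold and 1.36-fold. Zmat3 rose 1.29-fold and Btg2 fell 1.99-fold, both named after their values were seen. In Btg2 replicate 3 of Y-KO was the lowest, at 26.5 CPM against 55.4 and 54.8. Gdf15 passed whichever library was left out. With the close pairs summed none of the 16 passed (edgeR, 4 higher at an unadjusted p under 0.05), and the adjusted p of the 5 genes was 0.0552 for Gdf15 and 0.144 to 0.197 for the others. Bbc3 and Bax missed without Y-KO replicate 2 or Y-Scr replicate 2 or 3, Btg2 without any 1 of the Y-Scr libraries and Zmat3 without any library but Y-KO replicate 3 (edgeR adjusted p from 0.0597 to 0.116).

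**Figure D4:**
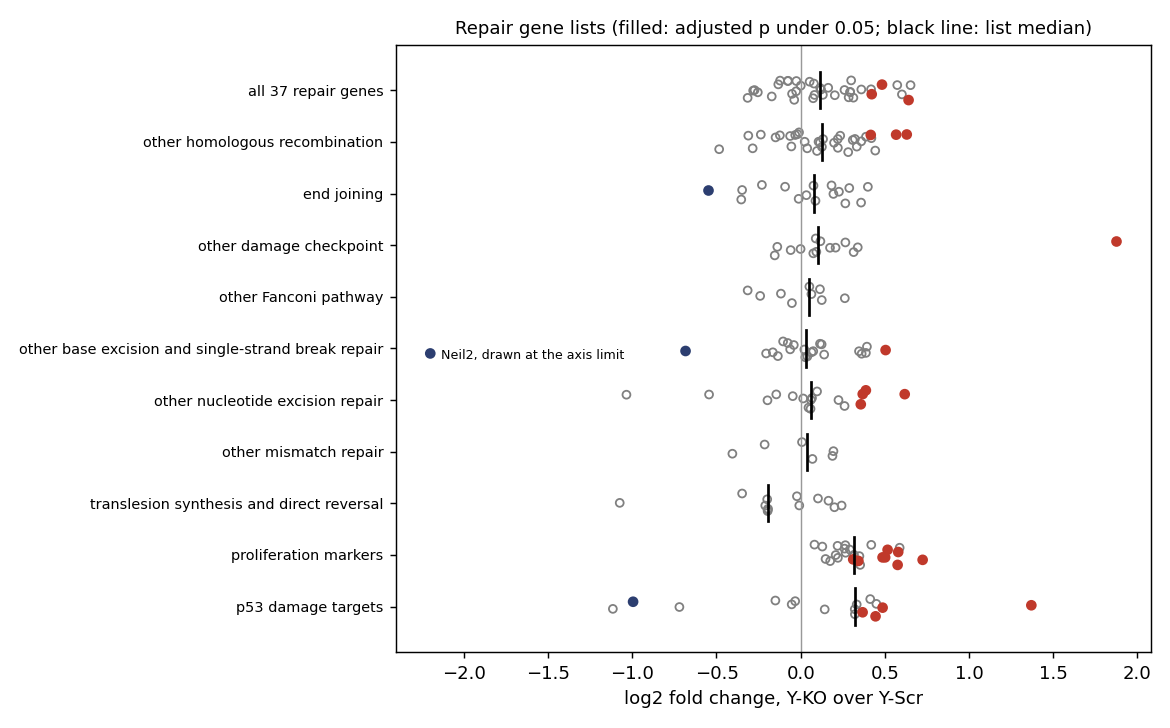
Log2 fold change (Y-KO over Y-Scr) of every tested gene in the 37 repair genes, the 8 lists of other repair genes, proliferation markers and p53 targets; each point is 1 gene, spread vertically at random within its list. Filled points passed an adjusted p of 0.05 (red higher, blue lower) and black lines are list medians, which run from -0.19 to 0.32, with Neil2, at 0 counts in Y-KO, drawn at the axis limit.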

How the data were processed

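RNA of CD45-negative cells from Y-KO and Y-Scr tumours was sequenced in 3 poly-A libraries per group, made with a stranded kit, per the labels. Each deposited value is a raw count of reads on the exons of a gene, made per the file headers with featureCounts 1.5.3 with the Ensembl release 112 annotation of GRCm39 and no strand, pairing or multi-mapping option. The submitters' processing notes name FastQC 0.12.1, MultiQC 1.13, Trimmomatic 0.39 and STAR 2.5.2b. The exon lengths used for levels per kilobase are those of the deposited file, per the file headers. Symbols were matched by gene ID in an older annotation (90.7% of IDs), and 284 of the 287 listed symbols were found, all 37 repair genes among them.

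Counts were tested over all genes with edgeR 4.0.16 in R 4.3.3: filterByExpr (minimum count 10, minimum total 15), TMM, the quasi-likelihood test on group alone and Benjamini-Hochberg adjustment, with calls at an adjusted p under 0.05. SE is the log2 fold change divided by the square root of F, and 95% intervals use its t distribution. Alternatives used limma 3.58.1, DESeq2 1.42.0, other scalings and filters, halved counts, summed close pairs, a replicate block, and leaving out each library. On simulated counts, with 50 genes changed at each size, the fit recovered 20% of 1.5-fold, 66% of 2-fold and 98% of 4-fold changes. Of its 152 calls there, 10 were false. The simulation had far fewer changed genes than the data, with 152 calls over 17056 genes against 2871 over 17837. An adjusted p is harder to pass when fewer genes change, so these shares do not give the power for the repair genes. Plots used matplotlib 3.10.9. Intervals include the spread between libraries, while the floor for 0 counts covers counting error only. The repair genes, lists and tests were chosen with earlier results of these data known. Named were all repair genes, up to 3 genes with the smallest p of each other list, and those said to be named afterwards.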

Additional observations from a re-analysis of the deposited data

How the results depend on the processing

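The count of 3 repair genes higher in Y-KO was 5 with DESeq2 and 0 with the close pairs summed, and ran from 2 to 9 as each library was left out. It was 9 without Y-KO replicate 3 and 2, Brca2 and Msh6, without any other single library. No repair gene was called lower under any of the 16 alternatives. The median log2 fold change of the repair genes was -0.03 with library size alone and ran from 0.08 to 0.15 as each library was left out. Of the 130 other repair genes, the 9 higher and 3 lower became 5 and 7 with library size alone, and 0 and 0 with the close pairs summed, while lower calls were 5 with limma-voom and 5 with DESeq2. Leaving out each library gave 2 to 21 higher and 0 to 10 lower, against 2.45% to 16.0% and 3.01% to 17.7% of all genes. Of all genes, 4.09% were higher and 12.6% lower with library size alone. With the close pairs summed these shares were 0.700% and 1.85%. Lower calls were 9.83% of all genes with limma-voom and 11.2% with DESeq2. The causes were not tested. Over all genes, 2871 calls became 496 with the close pairs summed. Leaving out Y-KO replicate 1, 2 or 3 gave 1733, 1801 or 6393, and leaving out Y-Scr replicate 1, 2 or 3 gave 1735, 1043 or 1037. Same-numbered libraries did not deviate together (correlations over genes of -0.01, 0.00 and -0.01), which gave no sign of pairing by number but cannot exclude it. With the replicate number as a block, 2 repair genes were higher, Mre11a being lost (edgeR adjusted p = 0.0632). Of the other repair genes, 5 were then higher and 1 lower, against 946 and 1120 of all genes. Counts of the repair genes were 145 at the lowest in a library (Rad51c, SE 0.20), and standard errors ran from 0.09 to 0.27 (Fancb). Genes with large errors allow no statement on small differences, and these include genes with more counts, such as Atm (SE 0.22).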
